A study of Homo sapiens with 6 samples.

Results

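The nuclear pore and karyopherin genes are the genes for the channels through the nuclear envelope and for the proteins that carry cargo through them. They were chosen by symbol alone: the numbered NUP, KPNA, KPNB, IPO, XPO and TNPO genes, and in addition CSE1L, RAN, RANBP1, RANBP2, RANGAP1, RCC1, TPR, SEH1L, NDC1 and AAAS. This rule found 54 of the 28395 genes in the deposited table. NUP42 is listed under its older symbol NUPL2, which the rule does not take.

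RNA-seq was performed on HCC827, an established human lung adenocarcinoma cell line with an activating deletion in EGFR, to ask how transcription responds when EGFR is inhibited. The cells were treated for 24 h with the vehicle DMSO (3 libraries) or with 1 μM erlotinib, an inhibitor of the EGFR kinase (3 libraries, numbered 4 to 6 in the table). All 6 libraries are of this single line, and the labels do not say whether the libraries of a condition came from separate cultures (the study's methods state in general that experiments were repeated independently), so the p-values measure the spread between these libraries, which may be technical. The libraries held 20858083, 24641819 and 21172884 reads on genes with DMSO and 21944007, 20760204 and 21678395 with erlotinib.

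Nuclear pores are built from many copies of a limited set of nucleoporins: an outer ring of Y complexes, an inner ring, a membrane ring that anchors the pore, a central channel of proteins rich in phenylalanine and glycine repeats, filaments on the cytoplasmic face and a basket on the nuclear face. Karyopherins bind cargo and those repeats, importins in the cytoplasm and exportins in the nucleus, and importin alpha is the adaptor that links cargo with a classical signal to importin beta. The GTPase Ran gives the transport its direction, because RCC1 loads it with GTP on chromatin in the nucleus and RANGAP1 triggers hydrolysis in the cytoplasm. In dividing cells the envelope is taken apart and rebuilt at each mitosis, and several of these proteins also act on the spindle and at kinetochores.

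The nuclear pore and karyopherin genes were lower with erlotinib almost throughout. All 54 passed the filter on low values (10 or more in the mean of the signal, which is reads divided by 1 size factor per library). With a threshold of 0.05 on the adjusted p-value, 51 were lower and 2 higher (limma on log2(signal + 1), two-sided, Benjamini-Hochberg over 14215 genes). In all tested genes, 35.4% were lower and 35.3% higher. The exceptions were AAAS and KPNA7, which were higher, and KPNA5, which did not pass the test. Of the 54, 29 were lower by at least 1 log2 unit, against 10.8% of all tested genes. The median log2 fold change was -1.02, against 0.02 over all tested genes. Scaled to the total count, fewer of the 54 were lower by at least 1 log2 unit. NUP153, RAN and KPNB1, for example, were then at -0.99, -0.94 and -0.90.

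Every erlotinib library lay below every DMSO library for 50 of the 54 genes, against 36.9% of all tested genes. Every erlotinib library lay above for 3 genes (AAAS, KPNA5 and KPNA7), against 36.7% of all tested genes, and in IPO13 the groups overlapped. The adjusted p-values of the 51 lower genes were between 3.76e-15 and 0.0323. Most of these genes are well expressed, with a median over genes of the mean signal of 1868 against 572 in all tested genes. Of the 7548 genes whose mean signal reached 500, 48.5% were lower, and the 47 nuclear pore and karyopherin genes at that level were lower without exception.

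The share of all reads that fell on the 54 genes was 0.678%, 0.735% and 0.684% in the DMSO libraries and 0.405%, 0.405% and 0.410% in the erlotinib libraries. The groups were far apart on this measure, which uses no size factor, and the means were 0.699% ± 0.0313 and 0.407% ± 0.00312 (SD, n = 3). Scaled to the total count instead, 49 of the 54 were lower and 3 higher, while 27.8% of all tested genes were lower and 43.3% higher. The median of the 54 genes was then -0.84 and that of all tested genes 0.19, a shift that this scaling gives to all genes alike. In bulk RNA, fewer cells of a type and less RNA per cell cannot be told apart.

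**Figure D1:**
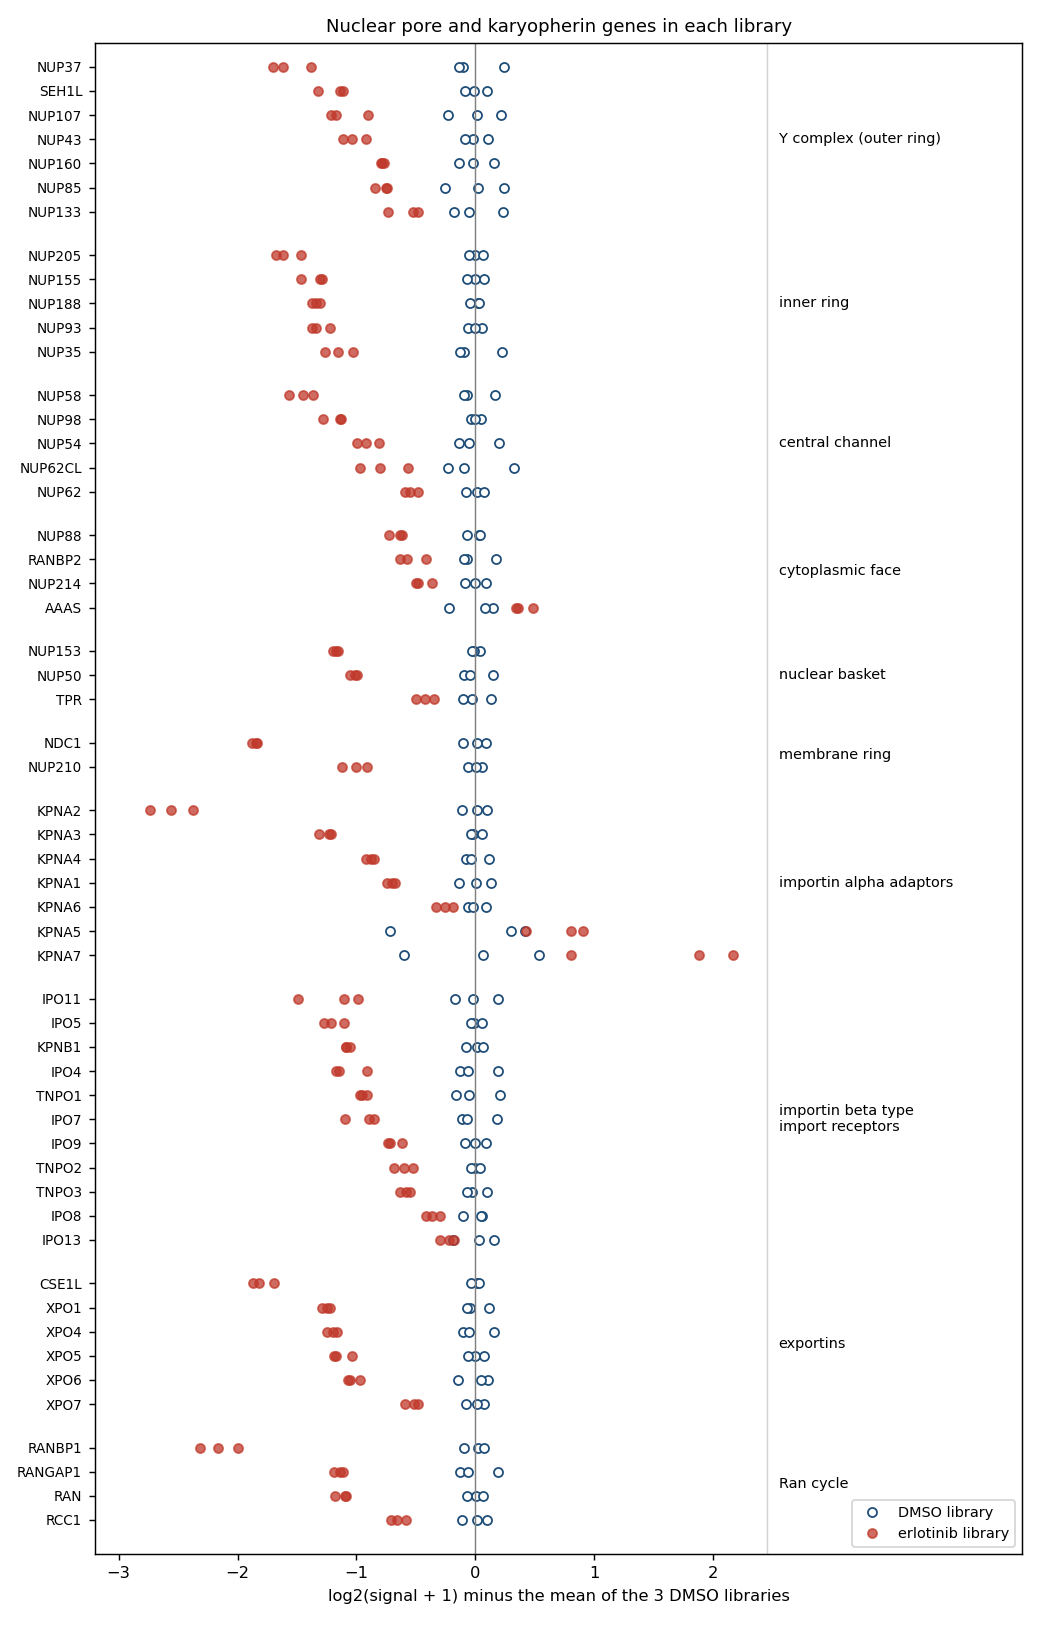
Log2(signal + 1) of each of the 54 genes in each library, with the mean of its 3 DMSO libraries subtracted (x axis), and the genes in rows by role. Open blue points are DMSO libraries and filled red points erlotinib libraries, and the red points lie to the left of all blue points in 50 rows and to the right in AAAS, KPNA5 and KPNA7.

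The promoters of 3 genes are shown because they belong to the importin alpha and the nucleoporin with the largest falls and to the nucleoporin that was higher, a choice made from their values. RefSeq (GRCh38.p14) held promoters, 250 bases before to 50 after the start site, for 47 of the 54 genes (all but KPNA4, KPNA5, KPNA7, KPNB1, NUP43, RANBP1 and XPO7). They were searched on both strands for CCAAT (the CCAAT box), TTTGAA (the cell cycle genes homology region, CHR), GGCGGGAA (E2F), CACGTG (E-box), CCGGAAGT (ETS) and CGCATGCG (NRF1 core), none of which contains another. Capitals mark the matches, and positions count from the start site, the first transcribed base being 1.
KPNA2, chr17:68035485-68035784, plus strand: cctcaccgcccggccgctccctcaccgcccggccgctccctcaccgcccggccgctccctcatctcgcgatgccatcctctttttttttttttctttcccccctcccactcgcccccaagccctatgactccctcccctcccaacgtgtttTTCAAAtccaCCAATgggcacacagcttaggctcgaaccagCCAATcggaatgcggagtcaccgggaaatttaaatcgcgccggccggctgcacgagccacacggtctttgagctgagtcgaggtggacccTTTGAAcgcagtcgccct
NDC1, chr1:53838247-53838546, minus strand: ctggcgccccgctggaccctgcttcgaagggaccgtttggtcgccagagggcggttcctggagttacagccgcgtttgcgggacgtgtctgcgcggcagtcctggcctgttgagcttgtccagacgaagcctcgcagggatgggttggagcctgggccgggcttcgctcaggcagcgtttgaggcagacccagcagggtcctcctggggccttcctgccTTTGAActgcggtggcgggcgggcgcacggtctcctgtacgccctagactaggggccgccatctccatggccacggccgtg
AAAS, chr12:53321561-53321860, minus strand: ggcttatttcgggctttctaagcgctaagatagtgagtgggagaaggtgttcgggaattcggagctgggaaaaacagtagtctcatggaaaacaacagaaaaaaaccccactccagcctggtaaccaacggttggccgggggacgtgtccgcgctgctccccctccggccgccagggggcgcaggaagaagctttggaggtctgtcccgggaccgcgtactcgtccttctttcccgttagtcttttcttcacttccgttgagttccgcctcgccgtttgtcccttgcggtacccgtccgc

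The KPNA2 promoter held 2 CCAAT boxes, starting at -89 and -58, and CHR letters starting at -99 and 33. The NDC1 promoter held CHR letters starting at -31. The AAAS promoter held none of the 6 motifs. Counting a gene when any of its promoters held the letters, 14 of the 47 genes (29.8%) held TTTGAA, against 18.2% of all genes with a promoter and 13.6% of the tested ones. For GGCGGGAA the count was 6 (12.8%, against 3.79% of all and 6.13% of tested genes), and for CACGTG 9 (19.1%, against 8.77% and 12.2%). For CCGGAAGT it was 8 (17.0%, against 4.95% and 9.52%), for CGCATGCG 4 (8.51%, against 2.46% and 4.38%) and for CCAAT 21 (44.7%, against 39.7% and 42.8%). These are matches of letters, and binding was not measured.

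All 7 genes of the Y complex, the scaffold of the outer rings, that the rule took were lower, and their log2 fold changes had a median of -1.02. The signal of NUP37 (chr12:102073103-102120120), a small subunit of the complex, was 864, 1099 and 847 in the DMSO libraries and 356, 285 and 301 in the erlotinib libraries. All erlotinib libraries lay far below the lowest DMSO library, and NUP37 fell by 1.57 ± 0.12 on the log2 scale (SE, adjusted p = 2.33e-10, limma). NUP133 (chr1:229440259-229508341), which lies in the stem of the Y, changed least, with 1386, 1696 and 1274 in DMSO and 1029, 999.9 and 867 in erlotinib libraries. The groups did not overlap, and the log2 fold change was -0.58 ± 0.10 (SE, adjusted p = 3.01e-05). Between these lay SEH1L (-1.19), which is also part of a complex that regulates growth signalling at lysosomes, NUP107 (-1.10), NUP43 (-1.02), NUP160 (-0.78) and NUP85 (-0.78).

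The 5 inner ring genes were all lower and close together, with a median of -1.34. NUP205 (chr7:135557917-135648757), one of the large scaffold proteins, had signals of 3175, 3332 and 3067 with DMSO and 1036, 999.9 and 1155 with erlotinib. Its erlotinib libraries kept about 33.3% of the DMSO mean, and the log2 fold change was -1.59 ± 0.077 (SE, adjusted p = 1.80e-13, limma). NUP35 (chr2:183117513-183161680), which ties the ring to the membrane, had 528, 660.3 and 515 with DMSO and 234, 276 and 253 with erlotinib. That was the smallest change of the ring, -1.15 ± 0.13 (SE, adjusted p = 6.14e-08), and the groups lay well apart. NUP155 (-1.36), NUP188 (-1.34) and NUP93 (-1.31) fell between them.

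The membrane ring held the largest fall of the 26 nucleoporins among the 54 genes. NDC1 (chr1:53765478-53838463), a transmembrane protein needed for pores to be inserted in the envelope, had signals of 5274, 5570.2 and 4877 with DMSO and 1468, 1455 and 1425 with erlotinib. The 3 erlotinib libraries were nearly equal, at 27.7% of the DMSO mean, and the log2 fold change was -1.85 ± 0.070 (SE, adjusted p = 3.76e-15, limma). NUP210 (chr3:13316235-13420322), the other transmembrane nucleoporin of the 54 genes, had 3345, 3087 and 3244 with DMSO and 1484, 1603 and 1716 with erlotinib, a log2 fold change of -1.01 ± 0.074 (SE, adjusted p = 1.35e-10). The log2 ratio of NUP210 to NDC1 was -0.66, -0.85 and -0.59 in the DMSO libraries and 0.02, 0.14 and 0.27 in the erlotinib libraries. Per kb of transcript, NDC1 made up 72.0% ± 1.89 of the summed signal of the 2 genes with DMSO and 58.9% ± 2.12 with erlotinib (SD, n = 3). The log2 ratio of NUP210 to NDC1 was higher by 0.84 with erlotinib (exact permutation test over libraries, two-sided, p = 0.10, adjusted over 8 related pairs 0.10, the smallest p that 3 against 3 libraries allow).

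The 5 genes placed in the central channel, where repeat proteins form the barrier, were lower with a median of -0.91. NUP58 (chr13:25301524-25365390), a repeat protein that assembles with NUP62 and NUP54, had 2406, 2841 and 2369 with DMSO and 983, 854 and 924 with erlotinib. The fall was the largest of the 5, and NUP58 fell by 1.46 ± 0.086 on the log2 scale (SE, adjusted p = 3.84e-12, limma). NUP62 (chr19:49906825-49929764), its partner, had 4611, 4329.5 and 4813 with DMSO and 3032, 3128 and 3282 with erlotinib. The groups did not overlap, and at -0.54 ± 0.068 (SE, adjusted p = 4.18e-07) the change of NUP62 was the smallest of the 5. NUP98 (chr11:3671083-3797792), which also encodes NUP96 of the Y complex in the same transcript, had 2977, 3159 and 3055 with DMSO and 1258, 1391 and 1397 with erlotinib. All erlotinib libraries of NUP98 were below every DMSO library, and the log2 fold change was -1.18 ± 0.073 (SE, adjusted p = 8.48e-12). NUP54 had a log2 fold change of -0.91, and NUP62CL, a copy of the end of NUP62 with no settled role, of -0.78.

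On the cytoplasmic face, 3 of 4 genes were lower and AAAS was higher, and the median of -0.49 was the nearest to 0 of the 10 roles. NUP88 (chr17:5359668-5420164), which forms a complex with NUP214 at the filaments, had 1485, 1387 and 1494 with DMSO and 878, 946 and 939 with erlotinib. The log2 fold change was -0.66 ± 0.081 (SE, adjusted p = 3.19e-07, limma), but NUP88 shares 3786 exonic bases with RABEP1, whose mean signal was 4845 with DMSO and 2840 with erlotinib, and reads of the 2 genes cannot be told apart if strand was not used in the counting. RANBP2 (chr2:108719482-108785810), the giant filament protein that binds Ran and acts as a SUMO ligase, had 4966, 5885 and 4892 with DMSO and 3376, 3519 and 3923 with erlotinib. These groups did not overlap either, and the log2 fold change was -0.54 ± 0.078 (SE, adjusted p = 3.39e-06). AAAS (chr12:53307456-53324864), which encodes aladin, a protein held at the pore by NDC1, had 387, 300.0 and 369 with DMSO and 448, 489 and 444 with erlotinib. Every erlotinib library was above every DMSO library, by 0.39 ± 0.12 on the log2 scale (SE, adjusted p = 0.00671). NUP214 had a log2 fold change of -0.45.

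All 3 nuclear basket genes were lower. NUP153 (chr6:17615035-17706925), which joins the basket to the ring, had 3867, 3736 and 3699 with DMSO and 1674, 1687 and 1645 with erlotinib. Both groups were narrow, and the log2 fold change was -1.17 ± 0.067 (SE, adjusted p = 2.48e-12, limma). TPR (chr1:186311652-186375693), the coiled-coil filament of the basket, had 2495, 2950.4 and 2638 with DMSO and 1899, 2009 and 2116 with erlotinib. The groups did not overlap, and the log2 fold change was -0.42 ± 0.077 (SE, adjusted p = 5.66e-05). NUP50, which helps to release importin alpha from its cargo, had a log2 fold change of -1.02. In the summed signal per kb of transcript of the 3 genes, TPR made up 17.5% ± 0.700 with DMSO and 25.2% ± 1.04 with erlotinib (SD, n = 3), with no overlap. These shares are uncertain, since 99.3% of the NUP50 transcript aligned elsewhere and reads that map to both places can be lost.

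**Figure D2:**
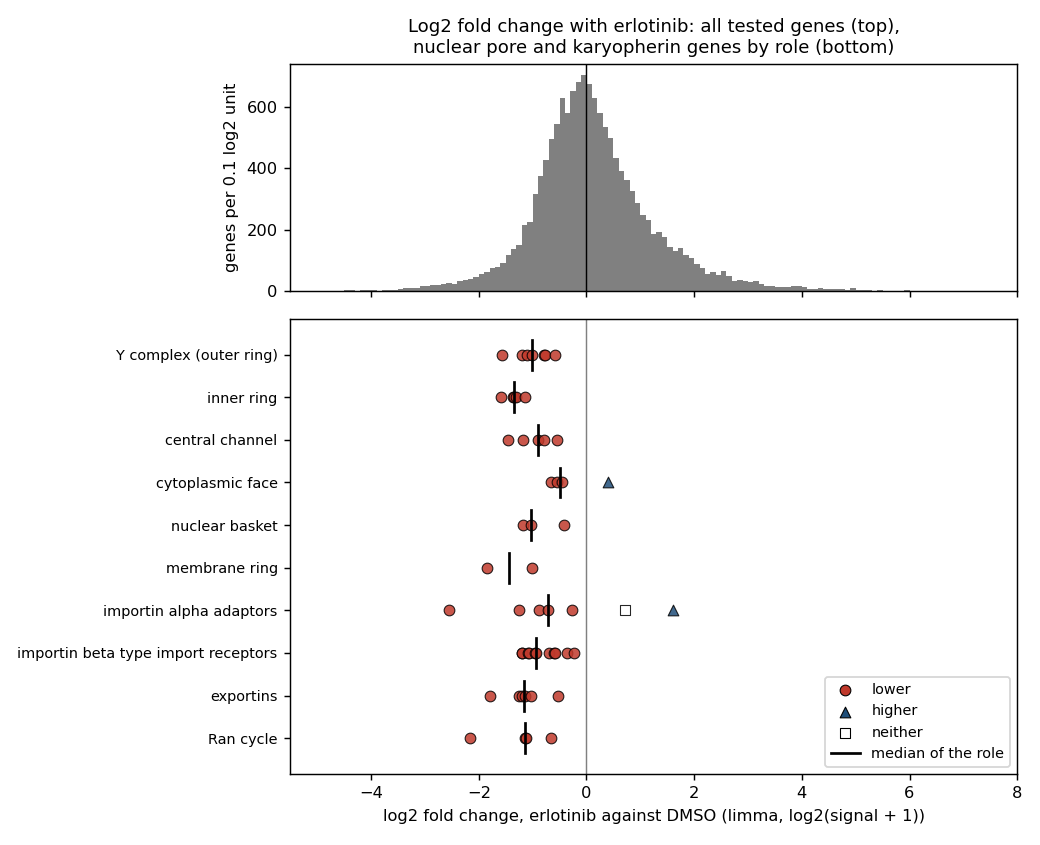
Log2 fold change, erlotinib against DMSO (x axis), as a histogram of all 14215 tested genes (top, genes per 0.1 log2 unit) and for each of the 54 genes by role (bottom). With a threshold of 0.05 on the adjusted p-value, red circles are lower genes, blue triangles higher and the white square neither. The black bar is the median of the role, which lies below 0 in all 10 roles. It goes from -0.49 on the cytoplasmic face to -1.43 in the membrane ring, which holds only 2 of the genes.

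The importin alpha adaptors had the widest range of the 10 roles, from the largest fall of all 54 genes to the largest rise. Of 7 genes, 5 were lower, 1 was higher and 1 did neither, and the median was -0.71. KPNA2 (chr17:68035636-68047364), the adaptor known as importin alpha 1 and for high levels in dividing cells, had 2098, 2286 and 2432 with DMSO and 385, 437 and 339.8 with erlotinib. The erlotinib libraries kept 17.0% of the DMSO mean, and KPNA2 fell by 2.56 ± 0.098 on the log2 scale (SE, adjusted p = 4.67e-15, limma). KPNA7 (chr7:99173572-99250075), an adaptor best known from oocytes and early embryos, had 15.9, 22.3 and 9.63 with DMSO and 58.1, 71.3 and 27.1 with erlotinib. It was higher in every erlotinib library, by 1.62 ± 0.42 on the log2 scale (SE, adjusted p = 0.00187), but at the lowest mean signal of the 54 genes and with wide spread.

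KPNA5, the second gene at low signal, had 17.0, 35.3 and 38.5 with DMSO and 50.8, 38.6 and 54.3 with erlotinib. The highest DMSO library and the lowest erlotinib library were nearly equal, and the difference of 0.71 ± 0.35 (SE, adjusted p = 0.0744, limma) did not pass the threshold. KPNA6, a close relative of KPNA5, had 3623, 4036 and 3733 with DMSO and 3171, 3012 and 3324 with erlotinib. It kept 83.5% of its DMSO mean with a log2 fold change of -0.26 ± 0.069 (SE, adjusted p = 0.00224). KPNA3 (-1.25), KPNA4 (-0.88) and KPNA1 (-0.71) were lower.

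Per kb of transcript, the make-up of the importin alpha genes was not the same in the 2 conditions. KPNA2 had the highest share with DMSO, at 34.0%, 33.7% and 37.6% of the summed signal per kb, and made up 13.1%, 14.5% and 11.8% with erlotinib. KPNA6 made up 15.8%, 16.0% and 15.5% with DMSO and had the highest share with erlotinib, at 29.0%, 26.9% and 31.1%. The shares of the groups did not overlap for either gene. The level of KPNA2 beside the other adaptors is uncertain, since 94.7% of its transcript aligned elsewhere in the genome and reads that map to both places can be lost, while KPNA6 has no such copy. KPNA1 went from 14.1% ± 1.11 to 18.9% ± 0.484 and KPNA4 from 17.9% ± 0.528 to 21.3% ± 0.0628, while KPNA3 went from 16.8% ± 0.521 to 15.5% ± 0.301 (SD, n = 3). KPNA7 went from 0.269% ± 0.0996 to 1.94% ± 0.808, and KPNA5 took at most 0.331% in any library.

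Related importin alpha genes were compared within each library. The log2 ratio of KPNA1 to KPNA2 was 0.60, 0.60 and 0.25 with DMSO and 2.29, 2.18 and 2.51 with erlotinib. It was 1.85 higher with erlotinib, the largest of the 8 differences between related pairs. The log2 ratio of KPNA5 to KPNA6 was 0.97 higher with erlotinib, and that of KPNA3 to KPNA4, which are closely related, 0.37 lower. None of the 3 ratios overlapped between the groups (exact permutation test, two-sided, p = 0.10 each and 0.10 adjusted over 8 pairs, the smallest that 3 against 3 allow).

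**Figure D3:**
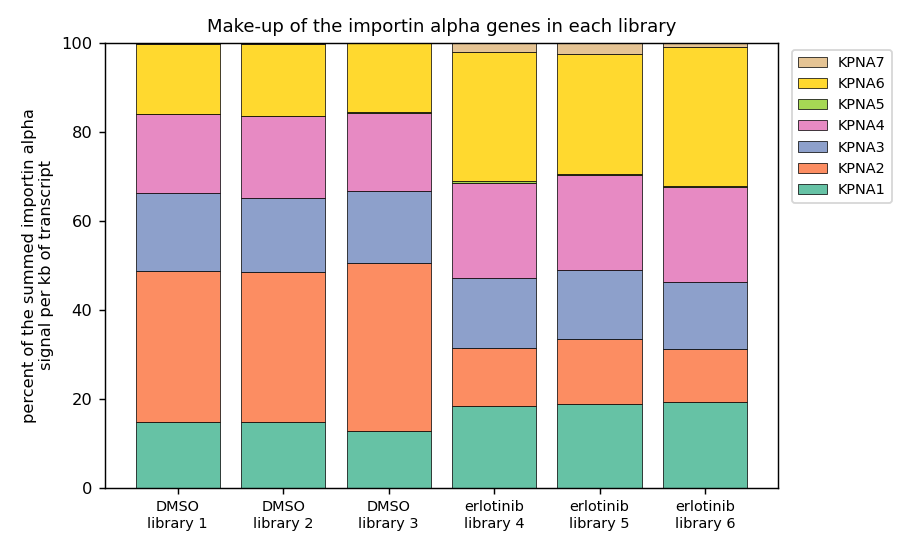
Percent of the summed importin alpha signal per kb of transcript (y axis) that each of the 7 genes takes, stacked to 100, in each of the 6 libraries (x axis). KPNA2 takes 33.7 to 37.6 percent in the DMSO libraries and 11.8 to 14.5 percent in the erlotinib libraries, where KPNA6 takes 26.9 to 31.1 percent.

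All 11 import receptors of the importin beta type were lower, with a median of -0.95. KPNB1 (chr17:47649476-47685505), importin beta itself, had 14928, 15531 and 14055 with DMSO and 7144, 6970.4 and 6959 with erlotinib. The libraries of each condition agreed closely, and the log2 fold change was -1.08 ± 0.062 (SE, adjusted p = 2.74e-12, limma). IPO11 (chr5:62403972-62628582), an importin that carries ubiquitin-conjugating enzymes among other cargo, had 259.8, 301 and 233 in DMSO and 132, 93.1 and 122 in erlotinib libraries. The groups were separate, and IPO11 fell by 1.20 ± 0.17 on the log2 scale (SE, adjusted p = 2.83e-06). IPO13 (chr1:43946950-43968022), which both imports and exports cargo, had 1198, 939.8 and 1095 with DMSO and 917, 947 and 871 with erlotinib. The second DMSO library lay within the erlotinib range, and the log2 fold change was -0.23 ± 0.094 (SE, adjusted p = 0.0323). This call of IPO13 was lost at the total count (log2 fold change -0.05, adjusted p = 0.608, limma) and at a threshold of 0.01. It was also lost without DMSO library 1, DMSO library 3, erlotinib library 4 or erlotinib library 6.

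IPO5 had the same log2 fold change as IPO11 at 2 decimals, and which of the 2 fell further changed with the tool, the pseudocount and the library left out. Without erlotinib library 5, IPO11 was at -1.05 and IPO5 at -1.24, and without erlotinib library 4 they were at -1.30 and -1.16. The remaining receptors lay between these 2 genes and IPO13. IPO5 (-1.20) and IPO4 (-1.08), which carry histones or ribosomal proteins, were lower by more than 1 log2 unit. TNPO1 (-0.95), the receptor of many RNA-binding proteins, IPO7 (-0.95), IPO9 (-0.69), TNPO2 (-0.60), TNPO3 (-0.59), the receptor of SR splicing factors, and IPO8 (-0.36) were lower by less. IPO7 and IPO8 are close relatives, and their log2 ratio was 0.48, 0.79 and 0.68 with DMSO and 0.21, 0.13 and -0.15 with erlotinib. It was 0.59 lower with erlotinib without overlap, and that of TNPO1 to TNPO2 was 0.35 lower (exact permutation test, two-sided, p = 0.10 and adjusted p = 0.10 for both).

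All 6 exportins were lower, with a median of -1.17. CSE1L (chr20:49046246-49096960), which returns importin alpha to the cytoplasm, had 4135, 4174 and 3989 with DMSO and 1158, 1267 and 1121 with erlotinib. The erlotinib libraries kept 28.8% of the DMSO mean, and CSE1L fell by 1.79 ± 0.072 on the log2 scale (SE, adjusted p = 9.66e-15, limma). XPO1 (chr2:61476032-61538741), the main exporter of proteins with a leucine-rich signal, had 8803, 9880.3 and 8696 with DMSO and 3902, 3842 and 3730.2 with erlotinib. Its groups were also far apart, with a log2 fold change of -1.25 ± 0.066 (SE, adjusted p = 7.20e-13). XPO7, an exportin with a broad range of cargo, had 2566, 2457 and 2304 with DMSO and 1709, 1618 and 1744 with erlotinib. This was the smallest change of the exportins, -0.53 ± 0.073 (SE, adjusted p = 1.72e-06), although the groups did not overlap.

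XPO4 (-1.20), XPO5 (-1.13), the exporter of microRNA precursors, and XPO6 (-1.03), the exporter of actin, were near the median. The log2 ratio of XPO1 to CSE1L was 1.15 ± 0.080 with DMSO and 1.69 ± 0.083 with erlotinib (SD, n = 3). The groups did not overlap, and the ratio was 0.54 higher with erlotinib (exact permutation test, two-sided, p = 0.10 and adjusted p = 0.10). In the summed signal per kb of the exportins, CSE1L went from 25.0% ± 0.262 to 16.8% ± 1.10 and XPO7 from 10.8% ± 0.448 to 17.5% ± 0.659, while XPO1 took 39.5% ± 1.82 and 38.7% ± 0.874 (SD, n = 3), with overlap.

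All 4 genes of the Ran cycle were lower, with a median of -1.13. RANBP1 (chr22:20115938-20127355), which helps RANGAP1 to free Ran from transport receptors, had 1374, 1269.5 and 1429 with DMSO and 301, 339.6 and 271 with erlotinib. Only KPNA2 fell further among the 54 genes, and RANBP1 fell by 2.16 ± 0.10 on the log2 scale (SE, adjusted p = 1.45e-13, limma). RAN (chr12:130872037-130877678), the GTPase, had 6245, 6504 and 5938 with DMSO and 2744, 2907 and 2936 with erlotinib. The conditions were far apart in this gene, with a log2 fold change of -1.12 ± 0.066 (SE, adjusted p = 3.66e-12).

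RANGAP1 (chr22:41244779-41286187), which stimulates hydrolysis of GTP by Ran, had 6076, 4883 and 5104 with DMSO and 2337, 2467 and 2419.7 with erlotinib. The first DMSO library was the highest, and the log2 fold change was -1.15 ± 0.077 (SE, adjusted p = 3.39e-11, limma). RCC1 (chr1:28505943-28539300), the nucleotide exchange factor on chromatin, had 6120.1, 5752 and 5273 with DMSO and 3483, 3796 and 3617 with erlotinib. It fell least of the 4, by 0.65 ± 0.070 on the log2 scale (SE, adjusted p = 4.36e-08). The log2 ratio of RCC1 to RANGAP1 was 0.01, 0.24 and 0.05 with DMSO and 0.58, 0.62 and 0.58 with erlotinib, higher by 0.49 (exact permutation test, two-sided, p = 0.10 and adjusted p = 0.10).

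Per kb of transcript, the levels with DMSO were highest for RAN (mean signal per kb 2518), KPNB1 (2449), RCC1 (2240.4) and XPO1 (1829.7) and lowest for KPNA5 (2.68), KPNA7 (8.86) and IPO11 (60.6). With erlotinib the highest were RCC1 (1424), KPNB1 (1159.5) and RAN (1157). RCC1 thus passed from the third place to the first in these values. The order of RAN, KPNB1 and RCC1 is uncertain, since 42.9% of the RAN and 24.3% of the KPNB1 transcript aligned elsewhere. Reads shared with such copies can be lost. KPNA2 went from the 10th place of the 54 (1149) to the 37th (196), and AAAS from the 46th (194) to the 27th (254). The ranks of KPNA2 share the limit given for RAN, with 94.7% of its transcript aligned elsewhere. Lengths are those of 1 transcript per gene (GENCODE release 44).

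**Figure D4:**
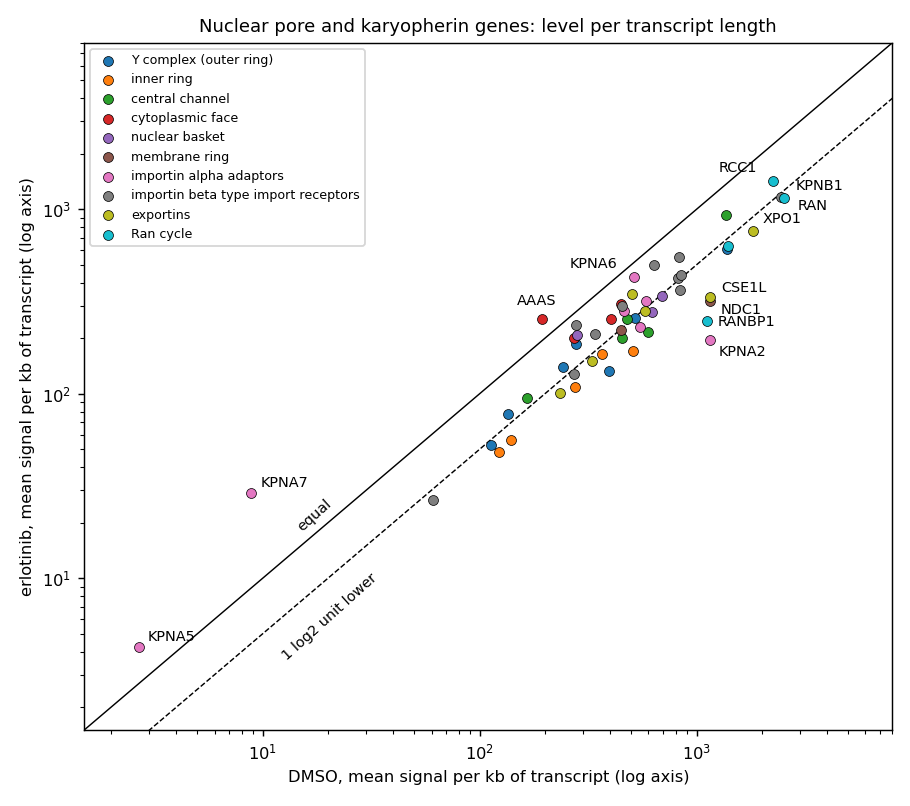
Mean signal per kb of transcript of the 54 genes with DMSO (x axis) and erlotinib (y axis), n = 3 libraries each, both axes logarithmic and colours by role. The solid line marks equal levels and the dashed line a level lower by 1 log2 unit, and only AAAS, KPNA5 and KPNA7 lie above the solid line while KPNA2, RANBP1, NDC1 and CSE1L lie farthest below the dashed one.

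Of the other genes of nuclear transport that the rule did not take, 24 were tested, and 21 were lower, 2 higher and 1 neither, with a median of -0.66, against 35.4% lower and 35.3% higher in all tested genes (NUPL1 and C11orf73 have no row under these symbols). ALYREF, an mRNA export adaptor, had 2888, 2527 and 2624 with DMSO and 681, 686 and 630.0 with erlotinib. It fell by 2.01 ± 0.081 on the log2 scale (SE, adjusted p = 1.01e-14, limma), and NXT1, the small partner of the mRNA export receptor, fell by 1.51 ± 0.11 (SE, adjusted p = 6.39e-11). AHCTF1, which seeds new pores on chromatin, had a log2 fold change of -1.18, and the membrane nucleoporins POM121 and POM121C of -0.64 and -0.56. The transport factor of Ran, NUTF2, was lower (-0.74), as were the tRNA exportin XPOT (-0.87) and the mRNA export factors GLE1 (-0.89), RAE1 (-0.90) and NUPL2 (-0.97).

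NXF1, the mRNA export receptor itself, had 724, 916 and 842 with DMSO and 1000.3, 977 and 985 with erlotinib. It was higher by 0.26 ± 0.094 on the log2 scale (SE, adjusted p = 0.0179, limma), the opposite direction to its partner NXT1. Among the helicases that work with GLE1, DDX19B was higher (0.32) and its near relative DDX19A lower (-0.82). SNUPN, the import adaptor of snRNPs, had a log2 fold change of -0.05 ± 0.12 (SE, adjusted p = 0.746) and overlapping groups. Scaled to the total count, 17 of the 24 were lower. The 2 rises were lost at a threshold of 0.01, and leaving out 1 library left between 0 and 2 of them: 0 without DMSO library 1 or erlotinib library 4, and 1 without DMSO library 3 or erlotinib library 5.

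Markers of proliferation moved with these genes. All 10 (MKI67, TOP2A, CCNB1, CDK1, PCNA, MCM2, MCM6, BUB1, AURKA and PLK1) were lower, their log2 fold changes having a median of -2.60 and a range from -3.03 to -2.41 (limma). Their summed signal was 52115, 55705 and 51524 with DMSO and 8850, 8679 and 8628 with erlotinib, so that 16.4% was left, against 51.4% of the summed signal of the 54 genes. MKI67, the most widely used of them, had 11888, 11225 and 10567 with DMSO and 1614, 1555 and 1797 with erlotinib. Of the 54 genes, only KPNA2 had a log2 fold change within the range of these markers. Their part in the fall of the nuclear pore and karyopherin genes was not tested.

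The epithelial markers of the line were abundant in every library: EPCAM had a mean signal of 9852 ± 235 with DMSO and 9485 ± 281 with erlotinib (SD, n = 3), CDH1 27824 ± 967 and 30609 ± 633, and KRT8 45622 ± 3.01e+03 and 25636 ± 338. KRT18 (-1.25) and KRT19 (-0.39) were lower by log2 fold change, as was KRT8 (-0.83). Of 10 markers of leukocytes, endothelium and fibroblasts, 3 passed the filter on low values. The summed signal of all 10 was 113, 94.7 and 142 with DMSO and 348, 274 and 268 with erlotinib. The most abundant was COL1A1, with 68.1, 69.7 and 95.3 and 245, 213 and 190.0, which was higher (log2 fold change 1.47, adjusted p = 6.78e-07, limma). Of the endothelial markers, VWF had 3.40, 0.93 and 7.49 with DMSO and 35.1, 25.7 and 21.5 with erlotinib and passed the filter only through its erlotinib libraries, and PECAM1, with 19.3, 14.9 and 12.8 and 12.9, 8.91 and 9.36, did not pass the threshold (-0.55, adjusted p = 0.348). CDH5 had 11.3, 0 and 0 with DMSO and 10.2, 7.92 and 12.2 with erlotinib. Among the leukocyte markers, PTPRC had 0, 0 and 5.35 with DMSO and 3.69, 4.95 and 5.62 with erlotinib, CD14 had 5.67, 5.57 and 8.56 and 24.0, 3.96 and 7.49, and CD3E had no value above 5 in any library. The fibroblast marker DCN had 0, 0 and 0 with DMSO and 2.77, 0 and 1.87 with erlotinib, LUM had 2.27, 3.71 and 6.42 and 9.23, 9.90 and 18.7, and COL3A1 had no value above 5. No untested marker was above 24.0 in any library, and LUM was above its DMSO range in every erlotinib library. Their part in the results was not tested.

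Reads of some of the 54 genes can be shared with other sequences. In 6 (IPO7, KPNA2, NUP50, RAN, RANBP1 and RANBP2), at least 40% of the transcript aligned elsewhere in GRCh38 at an identity of at least 95%, most in NUP50 (99.3%) and KPNA2 (94.7%), so reads that map to both places can be lost from counts of uniquely mapped reads and the levels of these genes are uncertain. Without them, 45 of the other 48 genes were lower and 2 higher. In 11 genes some exonic bases are shared with another gene of the table, the most, after NUP88, in KPNA1 with WDR5B-DT (1377 bases) and IPO11 with LRRC70 (1193). Partners with a mean signal above 500 in both conditions, besides RABEP1, were ATF5 (565 bases with NUP62), TRMT2A (393 with RANBP1), SNHG3 (242 with RCC1) and SH3GLB2 (61 with NUP188). POLR1C (348 with XPO5) was above 500 with DMSO, and the other partners had at most 105 in either condition. From DMSO to erlotinib, the mean signal of ATF5 went from 866 to 613, that of POLR1C from 518 to 361, that of SNHG3 from 935 to 679, that of TRMT2A from 638 to 648 and that of SH3GLB2 from 866 to 1545. The part of these overlaps in the results was not tested.

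The calls of IPO13 and KPNA6 depended on the scaling, with log2 fold changes of -0.05 and -0.08 at the total count (adjusted p = 0.608 and 0.317, limma). The call of IPO13 also rested on single libraries: its adjusted p was 0.18 without DMSO library 1 (log2 fold change -0.15), 0.0863 without DMSO library 3, 0.0748 without erlotinib library 4 and 0.117 without erlotinib library 6. Scaling to the total count brought TPR to -0.24, NUP214 to -0.27, IPO8 to -0.18, RANBP2 to -0.36 and XPO7 to -0.35, all still lower. KPNA5 passed the threshold at the total count (adjusted p = 0.0318), without DMSO library 2 (0.0474) and without DMSO library 3 (0.0408), while without DMSO library 1 its log2 fold change was 0.35 (adjusted p = 0.335).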

How the data were processed

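The authors sequenced mRNA of HCC827 cells as paired ends, mapped the reads to GRCh38 with Bowtie2 2.3.4, which does not split reads across introns, and counted uniquely mapped reads with featureCounts 1.6.3. The strand setting is not given in the sources used here. The signal values they deposited are reads divided by 1 size factor per library (0.882 to 1.08, equal to those of DESeq2). Dividing by the step of each library gave whole reads, within 0.01, for 100% of the values.

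Values were tested as log2(signal + 1) with limma 3.58.1 (trend of the variance on the mean, R 4.3.3) over 14215 genes, two-sided, with Benjamini-Hochberg adjustment and a threshold of 0.05. A fold change on this scale understates that of low genes. Related pairs were compared by exact permutation over the 6 libraries. Alternatives were edgeR 4.0.16 and DESeq2 1.42.0 on recovered reads, TMM factors, total counts, other pseudocounts and filters, a stricter threshold and each library left out, and, chosen after seeing the data, genes without copies. Tested on simulated data for this comparison (14195 genes, 199 of them changed), limma recovered 156 of the 199. It recovered 91 of the 100 changed 2-fold, and 7.14% of its calls were false. In the real data far more genes were called (35.4% lower and 35.3% higher), so this false share does not carry over to them.

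Genes named with all values are the lowest and highest of each role and 13 genes fixed by name; KPNA5, KPNA6, the genes named from other lists and those named for copies or overlaps were chosen after their values were seen. The members and lists were chosen with earlier results of these data known. Positions and lengths are from GENCODE release 44 (GRCh38), copies from minimap2 2.31-r1302, promoters from RefSeq.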

Additional observations from a re-analysis of the deposited data

How the results depend on the processing

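Of the 54 nuclear pore and karyopherin genes, 51 kept their direction and their side of the threshold under the 15 alternatives (14 for KPNA7), and the exceptions were IPO13, KPNA5 and KPNA6. The number lower was 49 to 51 with all 54 genes, and 45 of 48 without the genes that have copies elsewhere. The number higher was 1 when at least 10 reads were asked of every library, since KPNA7 was then not tested. The median log2 fold change of the 54 genes was -0.84 scaled to the total count and between -1.04 and -0.98 with 1 library left out. Of the other transport genes, 0 were higher when the threshold was 0.01 and 0 to 2 with 1 library left out. None of the 54 log2 fold changes, nor their median, changed its sign under the alternatives run, while the median of all tested genes went from 0.02 to -0.04 with at least 10 reads in every library. No paired analysis was possible because the erlotinib columns are numbered 4 to 6, while the sample titles number both conditions 1 to 3, and which of these columns belongs to which title is not given in the sources used here. The mean signals of KPNA5 and KPNA7, 39.1 and 34.1, were the lowest of the 54 genes, and the effect of depth was not tested.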

Other observations

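The genes of the nuclear envelope and lamina, in which the pores sit, were measured in the same fit. Of 15, 10 were lower, 4 higher and 1 neither (limma, threshold of 0.05 on the adjusted p-value), against 35.4% lower and 35.3% higher in all tested genes, and the median of their log2 fold changes was -0.40 against 0.02 over all tested genes. LMNB1, a B-type lamin, had 7411, 7811 and 7471 with DMSO and 1676, 1665 and 1454 with erlotinib. It fell by 2.24 ± 0.071 on the log2 scale (SE, adjusted p = 2.47e-16), and the other B-type lamin, LMNB2, fell by 1.66 ± 0.069 (SE, adjusted p = 1.40e-14). The A-type lamin gene LMNA had 14272, 11611 and 13379 with DMSO and 9858, 10062 and 9739.8 with erlotinib, a log2 fold change of -0.40 ± 0.071 (SE, adjusted p = 4.15e-05). TMPO (-1.60) and LBR (-1.53), proteins of the inner membrane that bind lamins or chromatin, were lower by more than 1 log2 unit, and BANF1 (-0.87), EMD (-0.53), LEMD3 (-0.46), SUN1 (-0.22) and TOR1AIP1 (-0.20) by less. SUN1 and TOR1AIP1 (adjusted p = 0.0162 and 0.014) did not pass a threshold of 0.01, and the groups of SUN1 overlapped.

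The 2 nesprin genes on the list, SYNE1 and SYNE2, whose proteins tie the nucleus to the cytoskeleton, were higher. SYNE2 had 354, 462 and 324 with DMSO and 1235, 1239 and 1742 with erlotinib. Every erlotinib library was above every DMSO library, by 1.88 ± 0.13 on the log2 scale (SE, adjusted p = 8.02e-11, limma). SYNE1 had 896, 1007 and 838 with DMSO and 1595, 1515 and 1925 with erlotinib, a rise of 0.87 ± 0.096 (SE, adjusted p = 6.97e-08). SUN2, which binds nesprins across the envelope, and LEMD2 were higher by 0.32 and 0.38. TOR1A had a log2 fold change of -0.09 ± 0.073 (SE, adjusted p = 0.254). Over the alternatives, 8 to 10 of the 15 were lower and 4 higher.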
